A study of Mus musculus with 82 samples.

Results

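The genes described here encode splicing factors and nuclear RNA-binding proteins: the SR proteins and their relatives, the heterogeneous nuclear ribonucleoproteins (hnRNP), the SF3A and SF3B complexes, the PRPF proteins and the proteins of the small nuclear ribonucleoproteins (snRNP). They were chosen by symbol, as genes whose array name begins with Srsf, Sfrs, Hnrnp, Hnrp, Sf3a, Sf3b, Prpf or Snrp. The array carried 64 such genes among 29564 gene symbols. One probe, that of highest mean level, stood for each gene, and 54 of the 64 genes were kept in the table that compares the fractions of control mice.

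Splicing removes introns from nuclear transcripts. The spliceosome that does it is built from snRNPs, each holding a small RNA inside a ring of Sm proteins, while SR and hnRNP proteins bind the transcript and favour or oppose the use of splice sites. The finished proteins work mostly in the nucleus, but they are translated in the cytoplasm, and several hnRNPs shuttle between both or travel with mRNA in neuronal processes. What the arrays measured is the mRNA that encodes these proteins, not the proteins or splicing itself.

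RNA came from the extended amygdala, a forebrain region tied to stress, reward and drinking, of female C57BL/6J mice aged 2 months. Alcohol mice could choose between water and 20% ethanol around the clock (24 h) for 30 days, and control mice drank water. From each mouse a synaptoneurosome fraction (SN, pinched-off synaptic endings and the processes around them) was made by filtering a homogenate through pores of 100 and 5 µm and pelleting it at 14000 g for 20 min, and 10% of the homogenate was kept as total homogenate (TH). The arrays used came from 21 mice: SN of 13 controls and 8 alcohol drinkers, TH of 11 controls and the same 8 drinkers. Both fractions were available for 11 control and 8 alcohol mice. The strain is inbred and the drinking voluntary, and SN is an enriched fraction of mixed tissue, not of 1 cell type.

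At a detection p under 0.01, SN arrays of control mice detected 16249 to 17914 probes and their TH arrays 16861 to 17985, with overlap. In alcohol mice SN arrays detected 15759 to 16983 and TH arrays 17211 to 17924, without overlap. The median of SN arrays was 16301.5 in alcohol mice and 16846 in controls. The part of these differences in detection in the comparisons that use alcohol mice was not tested. All 12 astrocyte markers rose in SN of control mice, with a median log2 difference of 0.59, and 9 of 10 endothelial markers fell, with a median of −1.29. Of 6 neuron markers measured, 1 rose and 3 fell, with a median of −0.21, and 4 others on the list were not kept. Microglia markers rose for 4 of 11, oligodendrocyte markers rose for 3 and fell for 4 of 7, and of 3 choroid plexus markers 1 rose. Nuclear-retained noncoding RNAs fell for 2 of 6 (Xist and Neat1), with a median of −0.18, and Malat1 was among the 3 not kept. The SN arrays of controls 12 and 13 stood apart from the other SN arrays, with noncoding RNAs 0.94 and 0.98 above the control median on the log2 scale. Of these, control 13 enters the comparison of fractions, and control 12 does not.

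The 10 genes that were not kept were Hnrnpa3, Hnrnpd, Hnrnph2, Hnrnpr, Hnrnpu, Scaf4, Sf3b1, Sfswap, Snrpb2 and Snrpe. Their 14 probes were detected, at a detection p under 0.05, on 0 to 6 of 22 control arrays, with median signals from 104 to 113, which is near background. Nothing can be said here of Sf3b1, the SF3B subunit that holds the branch point, of Snrpe, the Sm protein E, or of Hnrnpu, a large nuclear matrix protein. Among the genes kept, the probes of Sf3a2 and Prpf31 were close to background and that of Snrpn was among the brightest of the table, which does not rank the transcripts.

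In control mice the mRNAs of this family were mostly lower in SN than in TH. Of 54 genes, 24 fell, 2 rose and 28 did not pass the test (limma, adjusted p under 0.05). Over all 12628 genes 41.3% were called, 21.3% lower and 20% higher. The share of members called, 48.1%, was not far from that of all genes, while their direction was uneven: 43 of 54 members had a difference below 0, with a median of −0.11 against 0.00202 for all genes. The median over members was below 0 in 11 of 11 mice, from −0.14 to −0.03, while the median over all genes ran from −0.01 to 0.01. In bulk fractions such as these, less material from a cell type and less of a transcript within that material cannot be told apart. Without control 13 the test called 27 members. The summed signal of the endothelial markers was 2124 to 3155 in SN and 8651 to 12217 in TH. That of the astrocyte markers was 47928 to 68794 and 35513 to 51423, and that of the neuron markers 42338 to 63048 and 60303 to 77563. The part of these cells in the result was not tested.

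**Figure D1:**
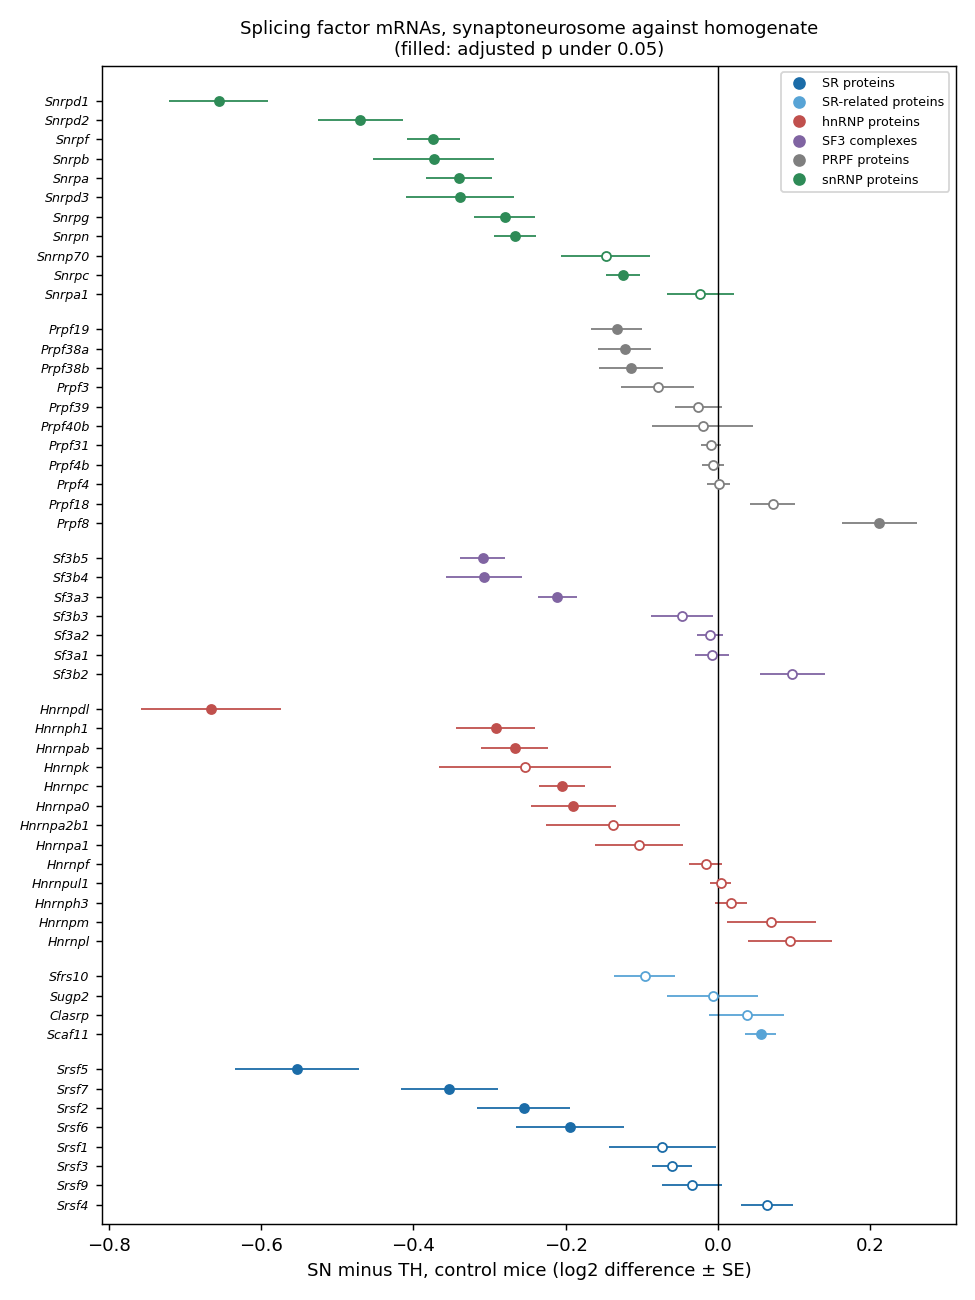
Log2 difference between SN and TH in 11 control mice for each of 54 members, with its standard error, ordered by size within 6 protein classes. Filled circles passed an adjusted p of 0.05, and 9 of the 11 snRNP genes are filled and lie left of 0.

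The proteins of the snRNPs made up the largest share of the falls. Of 11 genes measured, 9 fell and 0 rose, or 81.8% called against 41.3% of all genes. All 11 were below 0, and the median difference was −0.34. The median over these genes ran from −0.43 to −0.20 in single mice and was below 0 in 11 of 11. The Sm ring itself, which clamps the small nuclear RNA, is built from the products of Snrpb or its brain counterpart Snrpn and of Snrpd1, Snrpd2, Snrpd3, Snrpe, Snrpf and Snrpg. Every one of these genes that was measured fell, and Snrpe was not kept.

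Snrpd1, encoding Sm protein D1, had SN levels of 9.39 to 10.03 (median 9.77) on the authors' log2 scale and TH levels of 10.20 to 10.70 (median 10.40). The fractions did not overlap, and the difference was −0.66 (SE 0.07, adjusted p = 8.96e-06, limma), with both probes of the gene called lower. Snrpd2, for Sm protein D2, ran from 10.91 to 11.41 in SN (median 11.13) and from 11.45 to 11.78 in TH (median 11.62). That gap also left no overlap, at −0.47 (SE 0.06, adjusted p = 3.51e-05).

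Snrpf, for Sm protein F, was tight within each fraction, at 9.06 to 9.25 in SN and 9.39 to 9.70 in TH, with medians of 9.17 and 9.54. The mean gap of −0.37 (SE 0.03, adjusted p = 5.62e-06) came without overlap. Snrpa encodes a protein of the U1 snRNP, the particle that recognises the start of the intron. Its SN values of 9.56 to 9.89 (median 9.83) lay below all TH values of 9.97 to 10.26 (median 10.15), a difference of −0.34 (SE 0.04, adjusted p = 6.04e-05). These 4 genes were the only members whose fractions did not overlap. Of all genes, 2.43% were lower without overlap and 2.5% higher.

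Snrpb, for the B proteins of the ring, ran from 9.21 to 10.35 in SN (median 10.07) and from 10.12 to 10.85 in TH (median 10.42). The ranges overlapped, yet SN was lower in 11 of 11 mice, and the difference was −0.37 (SE 0.08, adjusted p = 0.00259). All 3 of its probes fell, by 0.09 to 0.37. Snrpd3 was lower in 10 of 11 mice, by 0.34 (SE 0.07, adjusted p = 0.00234), with SN values of 9.36 to 10.11 and TH values of 9.44 to 10.29. Snrpg fell by 0.28 (SE 0.04, adjusted p = 0.000143), with 10.59 to 10.99 in SN and 10.91 to 11.34 in TH, and all 3 of its probes fell.

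Snrpn encodes the SmN protein that stands in for SmB in neurons, and it is imprinted, with only the paternal copy read. Its normalized level was 13.53 to 14.07 in SN (median 13.71) and 13.91 to 14.18 in TH (median 14.01). The fractions overlapped at their edges, and SN was lower in 11 of 11 mice by a mean of 0.27 (difference −0.27, SE 0.03, adjusted p = 1.2e-05). Its unnormalized signal had a median of 14481 in SN and 18215 in TH. Of the remaining U1 proteins, Snrpc fell by 0.13 (adjusted p = 0.000756) and Snrnp70 had a difference of −0.15 (adjusted p = 0.0634). Snrpa1, of the U2 snRNP, had −0.02 (adjusted p = 0.714).

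**Figure D2:**
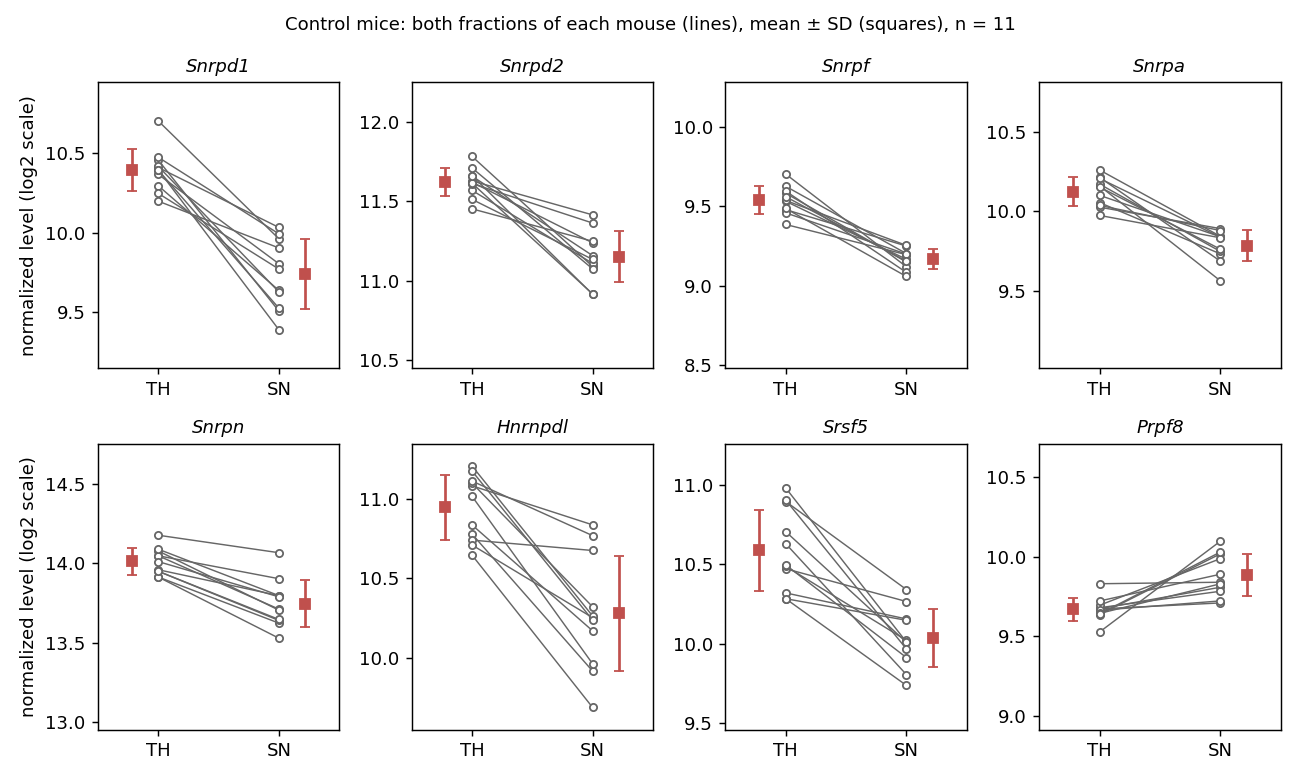
Normalized levels (log2 scale) of 8 members in TH and SN of the same 11 control mice, joined by a line per mouse, with mean ± SD as squares. In Snrpd1, Snrpd2, Snrpf and Snrpa every SN value lies below every TH value, and Prpf8 rises in each of the 11 mice.

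The promoters of 4 Sm genes that fell together, each with a single promoter in the RefSeq table for GRCm38.p6, are printed to show which motifs stand upstream of these neighbours in the ring. Each line gives 250 bases that end just before the annotated start, 5′ to 3′ on the gene's strand. Capitals mark matches, on either strand, to the motifs listed after the lines.
Snrpd2 (chr7:19149588-19149837, plus strand): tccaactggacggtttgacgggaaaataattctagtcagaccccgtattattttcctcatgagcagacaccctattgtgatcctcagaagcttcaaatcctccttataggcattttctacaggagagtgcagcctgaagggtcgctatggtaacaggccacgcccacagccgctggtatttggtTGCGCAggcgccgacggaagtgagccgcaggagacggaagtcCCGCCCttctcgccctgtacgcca
Snrpd3 (chr10:75517792-75518041, plus strand): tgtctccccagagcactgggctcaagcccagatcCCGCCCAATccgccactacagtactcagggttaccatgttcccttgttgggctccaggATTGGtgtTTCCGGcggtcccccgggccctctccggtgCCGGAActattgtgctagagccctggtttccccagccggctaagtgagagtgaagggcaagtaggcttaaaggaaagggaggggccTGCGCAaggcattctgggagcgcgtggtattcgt
Snrpf (chr10:93589659-93589908, minus strand): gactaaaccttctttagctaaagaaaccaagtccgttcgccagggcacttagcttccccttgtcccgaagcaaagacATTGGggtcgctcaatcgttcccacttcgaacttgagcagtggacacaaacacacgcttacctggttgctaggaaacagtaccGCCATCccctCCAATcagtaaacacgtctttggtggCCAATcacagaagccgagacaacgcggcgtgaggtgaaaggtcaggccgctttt
Snrpg (chr6:86371290-86371539, plus strand): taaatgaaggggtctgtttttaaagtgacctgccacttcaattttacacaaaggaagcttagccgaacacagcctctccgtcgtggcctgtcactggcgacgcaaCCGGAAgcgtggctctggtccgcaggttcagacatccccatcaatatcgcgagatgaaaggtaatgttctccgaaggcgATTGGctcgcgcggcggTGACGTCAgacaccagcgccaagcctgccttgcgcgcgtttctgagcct

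The motifs were the core of ETS factor sites spelled CCGGAA, the GC box spelled GGGCGG, the box named CCAAT, the TATA box spelled TATAAA, the core of NRF1 sites spelled TGCGCA, the CRE spelled TGACGTCA, a longer NRF1 site that overlaps the NRF1 core in part, the YY1 core spelled GATGGC, a longer YY1 site that holds the YY1 core, and the ZNF143 core spelled ACTACAA. No motif was found upstream of all 4 genes, and Snrpd2 and Snrpf had none in common. The motifs were picked after the promoters had been seen, and 48 of the 54 members had a promoter in the table, 11 of them several. The ETS core was found upstream of 23 of the 48 members (47.9%), of 24.2% of the 8331 genes tested that had a promoter, out of 12628, and of 13.6% of all 27025 genes in the table. It was found upstream of 10 of 20 members that fell and 13 of 26 that were not called, so its share did not separate them. The NRF1 core stood upstream of 14 of 48 members (29.2%) against 13.4% of genes tested and 7.36% of all genes. CCAAT stood upstream of 50% against 40.4%, the GC box of 62.5% against 64.8%, TATAAA of 12.5% against 7.93%, and the YY1 core of 12.5% against 13%. The other 4 motifs were found upstream of at most 2 members each, and of 0.78% to 4.42% of genes tested. A comparison of fractions does not measure promoter activity, and these matches are a description of the sequences.

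SR proteins carry repeats of serine and arginine and bind exons to promote their inclusion. Of 8 measured, 4 fell and 0 rose (50% called, against 41.3% of all genes), with a median difference of −0.13. Srsf5 ran from 9.74 to 10.34 in SN (median 10.01) and from 10.28 to 10.98 in TH (median 10.497). SN was lower in 11 of 11 mice (difference −0.55, SE 0.08, adjusted p = 0.000172), and the gene's other probe fell by 0.50.

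Srsf7, which also helps to export mRNA, had 9.59 to 10.31 in SN (median 9.89) and 10.10 to 10.51 in TH (median 10.25). It was lower in 11 of 11 mice, with a difference of −0.35 (SE 0.06, adjusted p = 0.000805). Srsf2, also called SC35, had 10.37 to 11.37 in SN and 11.003 to 11.38 in TH. It fell by 0.25 (SE 0.06, adjusted p = 0.00546), while its other probe had −0.06 (adjusted p = 0.565). Srsf6 fell by 0.19 (adjusted p = 0.0461) and was lower in 8 of 11 mice.

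The other 4 SR genes did not pass the test. Srsf1, the founding member of the family, had a difference of −0.07 (SE 0.07, adjusted p = 0.445), and its SN values of 10.76 to 11.59 enclosed the TH values of 10.95 to 11.22. Srsf3, a small SR protein that acts in export too, had −0.06 (adjusted p = 0.0919), while its dimmer probe fell by 0.12. Srsf9 had −0.03 and Srsf4 0.06. Among 4 SR-related genes, Scaf11, a factor that links splicing to RNA polymerase, rose by 0.06 (SE 0.02, adjusted p = 0.0394), with 8.29 to 8.52 in SN and 8.28 to 8.41 in TH. That call, on the brighter probe, was lost without any of 8 of the 11 mice. The dimmer probe of Scaf11 rose by 0.07 (adjusted p = 0.0296, limma). Sugp2, Clasrp and the gene the array calls Sfrs10 had differences of −0.01, 0.04 and −0.10.

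hnRNP proteins coat nascent transcripts and often oppose SR proteins. Of 13 measured, 5 fell and 0 rose, and the median was −0.14. The share called, 38.5%, was near the 41.3% of all genes, of which 21.3% were lower and 20% higher. Hnrnpdl, a relative of the AU-rich element binding protein hnRNP D, had the largest fall of all members. Its SN values ran from 9.69 to 10.84 (median 10.25) and its TH values from 10.65 to 11.21 (median 11.02). The ranges overlapped, SN was lower in 11 of 11 mice, and the difference was −0.67 (SE 0.09, adjusted p = 0.000112), with the other probe at −0.24 and also called.

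Hnrnph1, which binds runs of guanines, fell by 0.29 (SE 0.05, adjusted p = 0.000736), with 9.47 to 10.13 in SN and 9.77 to 10.16 in TH. Of its 5 probes 3 fell, and the 2 dimmest had differences of −0.04 and −0.03. Hnrnpc, which binds uridine tracts and stays in the nucleus, fell by 0.20 (SE 0.03, adjusted p = 0.00017), with 12.17 to 12.47 in SN and 12.30 to 12.63 in TH. Hnrnpab and Hnrnpa0 fell by 0.27 and 0.19, and their dimmer probes had 0.04 and 0.01 and were not called.

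The remaining 8 hnRNP genes did not pass the test. Hnrnpa2b1, whose protein rides with transcripts into dendrites, had a difference of −0.14 (SE 0.09, adjusted p = 0.245) and was lower in 6 of 11 mice. Hnrnpk, a poly-C binding protein, had −0.25 with a wide error (SE 0.11, adjusted p = 0.0958), and its dimmer probes had 0.01. Hnrnpa1 had −0.10 (SE 0.06, adjusted p = 0.176), and without control 2 it fell by 0.15 (adjusted p = 0.0326). Hnrnpm and Hnrnpl had 0.07 and 0.10, and 1 of the 3 probes of Hnrnpm fell by 0.14. The dim probes of Hnrnpf, Hnrnpul1 and Hnrnph3 had −0.02, 0.00 and 0.02.

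The SF3 complexes belong to the U2 snRNP and settle on the branch point. Of 7 genes, 3 fell and 0 rose (42.9% called, near the 41.3% of all genes), with a median of −0.05. Sf3b5, a small subunit, had 10.20 to 10.55 in SN (median 10.40) and 10.52 to 10.88 in TH (median 10.64), was lower in 11 of 11 mice and fell by 0.31 (SE 0.03, adjusted p = 6.62e-06). Sf3b4 fell by the same 0.31 (SE 0.05, adjusted p = 0.000393), with its dim second probe at −0.05 and not called, and Sf3a3 by 0.21. The other subunit genes Sf3b3, Sf3a1, Sf3a2 and Sf3b2 had −0.05, −0.01, −0.01 and 0.10 and were not called, so the complexes did not move as 1 block.

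Among 11 PRPF genes 3 fell and 1 rose, with a median of −0.02. The share called, 36.4%, was near the 41.3% of all genes. Prpf8, the scaffold at the catalytic heart of the spliceosome, had 9.71 to 10.10 in SN (median 9.84) and 9.53 to 9.83 in TH (median 9.67). It rose in 11 of 11 mice, by 0.21 (SE 0.05, adjusted p = 0.00436), with ranges that overlapped. This rise is relative to the other genes of each array: the median unnormalized signal of Prpf8 was 841 in SN and 927 in TH. Prpf19, a ubiquitin ligase of the active spliceosome, fell by 0.13 (SE 0.03, adjusted p = 0.00772), Prpf38a by 0.12 and Prpf38b by 0.11. The dimmest probe of Prpf19 and the dimmer probe of Prpf38a had −0.11 and −0.02 and were not called. The U4/U6 proteins Prpf3, Prpf4 and Prpf31 had differences of −0.08, 0.00 and −0.01, and the last was close to background. A dimmer probe of Prpf3 fell by 0.15 (adjusted p = 0.00216, limma), and its dimmest had −0.01. The other probe of Prpf4 had 0.06 and was not called. Prpf39, Prpf40b, Prpf4b and Prpf18 had −0.03, −0.02, −0.01 and 0.07, with none called.

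Neighbouring parts of the pathway were described with lists of genes outside the family. Their shares called stand beside 41.3% of all genes, 21.3% lower and 20% higher. Of 49 other core spliceosome genes 22 fell and 2 rose (49.0% called), with a median of −0.08. The largest falls were those of Txnl4a, a U5 protein, at −0.37, and Lsm7, of the Sm-like ring of U6, also at −0.37. The 2 that rose were the helicase Dhx38 and Syf2, both at 0.18.

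Assembly of the Sm ring is the work of the SMN complex. Of 9 genes on that list 6 fell and 0 rose (66.7% called), with a median of −0.11. The largest falls were Smn1, the spinal muscular atrophy gene, at −0.38 (adjusted p = 1.14e-05) and Gemin7 at −0.20. Of 23 export, exon junction and decay genes 7 fell and 0 rose, or 30.4% called, against 41.3% of all genes. The largest falls were those of the export adaptor Alyref and the junction protein Magoh, both at −0.26. Of 18 cleavage and polyadenylation genes 8 fell and 4 rose (66.7% called). The falls were led by Cstf3 at −0.60 and Wdr33 at −0.30, and the rises by Sympk at 0.22 and Clp1 at 0.12.

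Of 27 tissue-restricted and auxiliary splicing regulators measured, 7 fell and 3 rose, with a median of −0.05. That is 37.0% called, against 41.3% of all genes. Tra2a (−0.43) and Elavl2 (−0.27) fell furthest, and Qk, the quaking protein of glia, and Celf4, a neuronal factor, rose by 0.24 and 0.22. Of 27 other nuclear RNA-binding proteins 9 fell and 3 rose (44.4% called). The falls were led by the cold-inducible Rbm3 at −0.42 and Pcbp1 at −0.39. The rises were led by Pcbp4 at 0.36 and Syncrip, a component of dendritic RNA granules, at 0.21. Of 12 SR protein kinases and coactivators 25% were called. Clk1 (−0.23) and Srpk3 (−0.13) fell, and Acin1, a nuclear factor with a role in apoptosis, rose by 0.59 (adjusted p = 1.58e-06).

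The same contrast was then read in the 8 alcohol mice, which share no animals with the control comparison, on signals normalized jointly for both fractions. Of 53 genes, 24 fell and 4 rose, where 47.5% of all genes were called, 25.8% lower and 21.7% higher. The median was −0.13 against −0.01 for all genes. Sizes here are not on the scale of the authors' values. The median size of a difference over all genes was 0.12 here and 0.07 on the authors' values of control mice. On quantile-normalized signals the member median of control mice was −0.15. Of the 24 members that fell in control mice, all 24 were below 0 in alcohol mice and 21 fell. The other 3 were Snrpd3 (−0.10), Hnrnpa0 (−0.13) and Prpf38a (−0.13).

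Hnrnpdl again had the largest fall, at −0.85 on this scale (SE 0.08, adjusted p = 7.44e-07). It ran from 10.87 to 11.30 in TH and from 9.90 to 10.82 in SN, without overlap in these 8 mice. Snrpd1 fell by 0.55 (SE 0.06, adjusted p = 5.98e-06) and Srsf7 by 0.47 (SE 0.05, adjusted p = 4.99e-06), and in both genes the fractions did not overlap. Without overlap 9 members were lower (Hnrnpdl, Snrpd1, Srsf7, Snrpn, Snrpa, Sf3a3, Sf3b4, Sf3b5 and Srsf6) and 1 higher (Hnrnph3, close to background). Of all genes, 4.88% were lower and 6.4% higher in that way. Snrpn fell by 0.42 (SE 0.05, adjusted p = 4.21e-06), with SN at 13.45 to 13.82 and TH at 13.92 to 14.22. The snRNP genes again fell for 9 of 11, and the SR genes for 5 of 8.

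The 2 genes that rose in control mice were above 0 but not called in alcohol mice, with Prpf8 at 0.03 (SE 0.06, adjusted p = 0.756) and Scaf11 at 0.10 (adjusted p = 0.11). Those that rose in alcohol mice were Hnrnpa2b1 (0.32, adjusted p = 0.0458), Snrpa1 (0.20, adjusted p = 0.0056), Hnrnph3 (0.19, adjusted p = 0.00142) and Sf3b2 (0.13, adjusted p = 0.0115). The other probe of Hnrnpa2b1 had −0.10. On unnormalized signals of these mice, the median of Snrpa1 was 401 in SN and 437 in TH, and that of Sf3b2 3354 and 3968. That of Hnrnph3, close to background, was 143 in SN and 145 in TH, and only that of Hnrnpa2b1 was higher in SN. The rises of Snrpa1, Sf3b2 and Hnrnph3 are thus relative to the other genes of each array. In alcohol mice all 6 nuclear-retained noncoding RNAs fell, with a median of −0.48, beside 12 of 12 astrocyte markers that rose and 9 of 10 endothelial markers that fell. Microglia markers rose for 10 of 11, with a median of 0.25, and neuron markers fell for 4 of 6 and rose for 1, with a median of −0.35. The part of these cells and RNAs in the values was not tested.

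**Figure D3:**
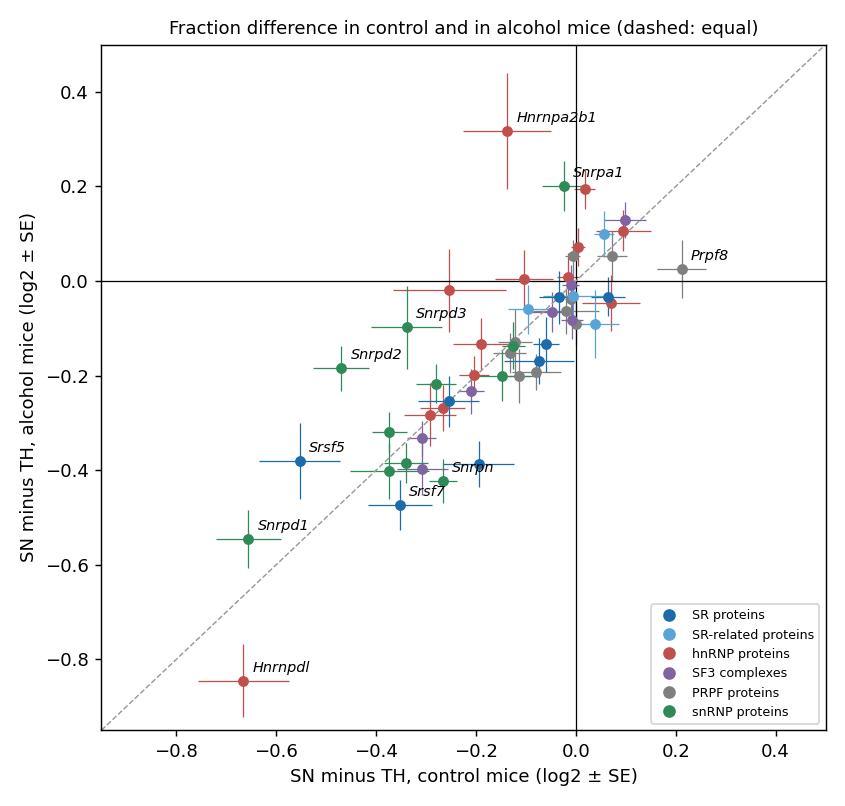
SN minus TH (log2, with standard errors) of 53 members in 11 control mice (horizontal axis) and 8 alcohol mice (vertical axis), coloured by class, the former on the authors' values and the latter on jointly normalized signals, with the line of equality dashed. Hnrnpdl and Snrpd1 lie farthest toward the lower left, and Hnrnpa2b1, at −0.14 in control and 0.32 in alcohol mice, lies above the line. The axes are on unlike scales, so distance from the line does not measure an alcohol effect. On jointly normalized signals Hnrnpa2b1 had a mean of −0.19 in control mice, and its gap was not called (adjusted p = 0.358, limma).

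Whether drinking moved these mRNAs was tested in each fraction apart. In SN, 0 of 53 members were called, as were 0% of all genes (limma). At an unadjusted p under 0.05, 3 members were higher and 2 lower, where 10.6% of all genes passed, 5.64% higher and 4.95% lower. The count of 5 in 53 is thus near that background, and the median over members was −0.00217.

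The smallest p belonged to Prpf8. Its SN levels ran from 9.46 to 9.75 in alcohol mice (median 9.53) and from 9.58 to 9.98 in controls (median 9.75), and all 8 alcohol values lay below the control median, with overlap between the groups. The difference was −0.21 (SE 0.05, p = 0.000697, adjusted p = 0.417). Snrpn had 13.27 to 13.68 against 13.46 to 13.99 in controls, with a mean gap of −0.20 (SE 0.06, adjusted p = 0.417), while its dimmer probe had 0.05. Srsf1 and Srsf6 both had −0.15 (adjusted p = 0.508 and 0.521).

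On the higher side, Snrpd2 ran from 11.07 to 11.26 in alcohol mice (median 11.18) and from 10.68 to 11.27 in controls (median 10.997). All 8 alcohol values were above the control median, and the difference was 0.17 (SE 0.06, p = 0.0137, adjusted p = 0.436). Hnrnpa2b1 had 8.40 to 9.33 against 8.21 to 9.14, a difference of 0.36 (SE 0.11, adjusted p = 0.417), and its other probe had −0.03. Hnrnph3, close to background, had 0.07 (adjusted p = 0.417) and Hnrnpk 0.23 (adjusted p = 0.486). Srsf2, Srsf3, Srsf5, Srsf7, Hnrnpa1, Hnrnpc, Prpf19, Snrpa and Snrpb had differences between −0.05 and 0.09. Without controls 12 and 13 the count called was again 0, and the members at an unadjusted p under 0.05 were 6. Beside these values, nuclear-retained noncoding RNAs had a median difference of −0.31 and choroid plexus markers of −0.44, with none called, and their part was not tested.

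**Figure D4:**
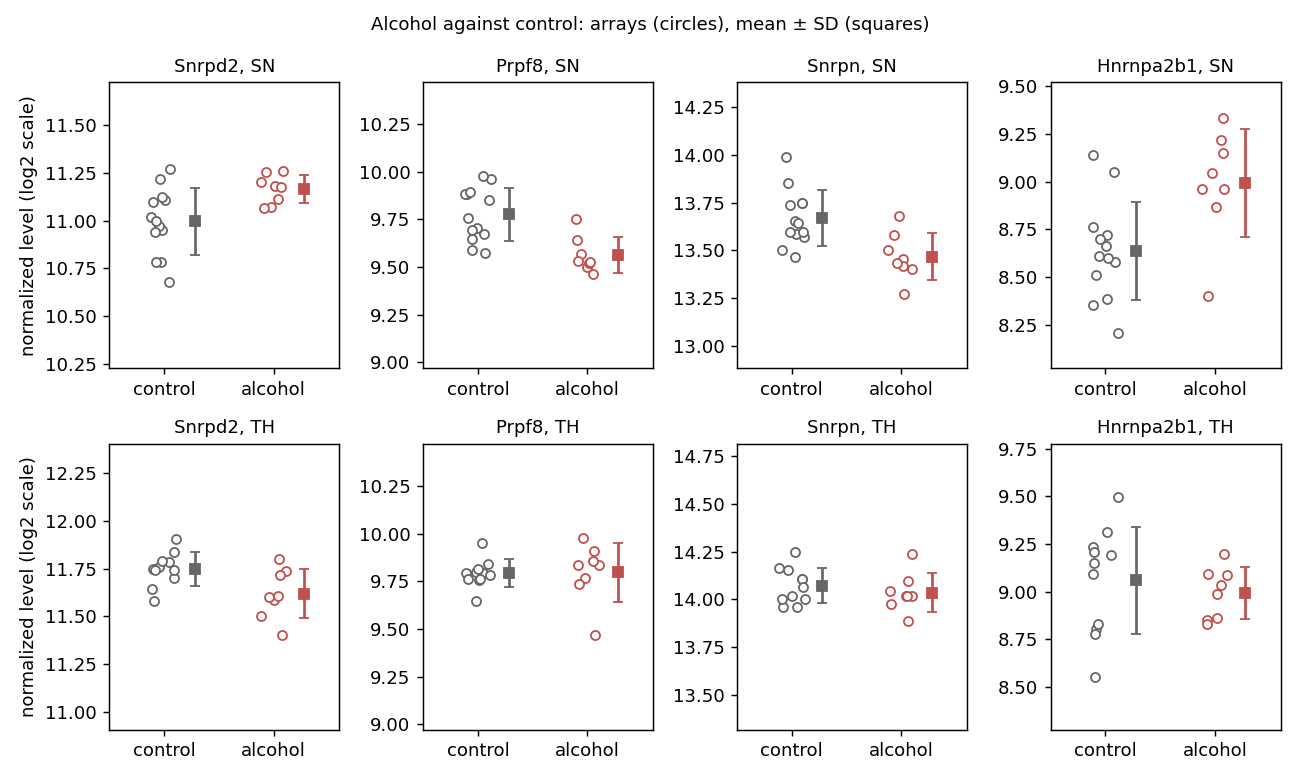
Normalized levels (log2 scale) of Snrpd2, Prpf8, Snrpn and Hnrnpa2b1 in SN (top, 13 control and 8 alcohol arrays) and TH (bottom, 11 and 8 arrays), a circle per array, with mean ± SD as squares. Alcohol and control arrays overlap in every panel, and the mean of Snrpd2 with alcohol is above that of controls in SN and below it in TH, with neither difference called.

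In TH, too, 0 of 54 members and 0% of all genes were called. At an unadjusted p under 0.05, 3 members passed, all lower, against 3.12% of all genes, 1.59% lower and 1.53% higher. That count was 1 without alcohol mouse 2, 2 without alcohol mouse 7 and 5 without control 10. It was 6 without control 7, alcohol mouse 3 or alcohol mouse 8, and 3 or 4 without any other mouse. The 3 that passed with all mice were the Sm genes Snrpd2, Snrpd3 and Snrpf. Snrpd2 ran from 11.40 to 11.80 in alcohol mice (median 11.61) and from 11.58 to 11.91 in controls (median 11.75), which gave −0.13 (SE 0.05, p = 0.0139, adjusted p = 0.999). Snrpd3 had −0.23 (SE 0.09, p = 0.0227, adjusted p = 0.999), and Snrpf −0.09 (SE 0.04, p = 0.0275, adjusted p = 0.999), each with groups that overlapped.

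On the probe used, all 11 snRNP genes had TH differences below 0, from −0.23 to −0.01. So did 39 of 54 members, with a median of −0.02 against −0.000641 for all genes. The dimmer probes of Snrnp70 and Snrpa had 0.02 and 0.01, while those of Snrpb, Snrpd1, Snrpg and Snrpn were below 0. None of these differences passed the test, so they are given as values. Snrpd1 had −0.13, Srsf1 −0.06, Srsf5 −0.14 and Snrpb −0.07. Those with the smallest p on the higher side were Srsf4 (0.07), Prpf4 (0.03), Prpf31 (0.01) and Sugp2 (0.06). Prpf8, Prpf19, Srsf2, Srsf3, Srsf7, Hnrnpc, Snrpa and Snrpn lay between −0.04 and 0.01, and Hnrnpa1, Hnrnpa2b1 and Hnrnpk between −0.07 and −0.03. Beside these values, choroid plexus markers in TH had a median difference of −0.39 and nuclear-retained noncoding RNAs of −0.00247, with none called. The summed choroid plexus signal in TH was 1001 to 3857 in alcohol mice and 819 to 33373 in controls. The part of these markers and RNAs was not tested.

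Whether the alcohol difference was unlike in the fractions was tested on the SN minus TH value per mouse, in 11 control and 8 alcohol mice. Again 0 of 53 members and 0% of all genes were called. At an unadjusted p under 0.05, 6 members were higher and 2 lower, where 12.6% of all genes passed, 6.11% higher and 6.47% lower. Snrpd2 had the smallest p among members: its SN minus TH value ran from −0.75 to −0.21 in control mice (median −0.46) and from −0.42 to 0.02 in alcohol mice (median −0.18). The groups overlapped, and the gap was 0.29 (SE 0.08, p = 0.00162, adjusted p = 0.31).

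Of the other Sm genes, Snrpd3 had a gap of 0.29 (SE 0.13, adjusted p = 0.385) and Snrpf of 0.14 (SE 0.06, adjusted p = 0.38). The brighter probe of Snrpn went the other way at −0.17 (SE 0.06, adjusted p = 0.336). Its dimmer probe did not share that direction, with alcohol differences of 0.05 in SN and −0.10 in TH, neither called. Prpf8 ran from 0.01 to 0.65 in control mice and from −0.22 to 0.34 in alcohol mice, a gap of −0.22 (SE 0.09, adjusted p = 0.363). Hnrnpa2b1 had 0.51 (SE 0.19, adjusted p = 0.358), with values from −1.19 to 0.31 in control mice and from −0.65 to 0.72 in alcohol mice. Snrpa1 and Hnrnph3 had 0.24 and 0.16. Over the 53 members 30 gaps were above 0, and the median was 0.00551.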

How the data were processed

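Messenger RNA was measured on Illumina Mouse WG-6 v2.0 BeadChips. The deposited signal tables hold average bead intensity with a detection p-value per probe, not normalized between arrays, per the file headers. The authors also deposited 3 normalized tables on a log2-like scale, each normalized on its own and compressed at low signal, which understates changes of dim genes. The submitters' processing notes name lumi; its version is not given in the sources used here. The TH arrays of controls 11 and 12, titled as outliers, are not in the tables and were not analysed here.

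Differences were fitted on the authors' log2 values with limma 3.58.1, run in R 4.3.3, and p-values were adjusted by Benjamini and Hochberg's method over all probes of a table. SN against TH was fitted with the mouse as a block, since both fractions came from the same homogenate per the labels. Deviations of paired arrays correlated at 0.08 to 0.62, above 0.1 in 10 of 11 pairs. Alcohol was compared with control without a block. For alcohol mice and for the gap between alcohol effects, log2 signals of 17265 probes were quantile-normalized jointly. A member called passed an adjusted p of 0.05. The number of arrays limits the precision.

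Of 64 member symbols 30 were current, 33 were updated through RefSeq names, and Sfrs10 was kept as the array gives it. A further 10 probes, whose array symbols lie outside the rule though RefSeq now gives them member names, were not counted as members. Members, lists and the rule for named genes were chosen with earlier results of these data known. Named were the 12 called members with the largest fall and up to 8 with the largest rise in SN of control mice, the 4 of smallest p each way in each alcohol comparison, a fixed set of 17 members as far as measured, and of each pathway list the 2 called genes with the largest change each way. Other genes were named to account for all members. The fits were tested on simulated data. Promoters were read with Python 3.11.15 and pandas 2.3.3, and figures drawn with matplotlib 3.10.9.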

Additional observations from a re-analysis of the deposited data

Results flagged for a closer look

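In SN of alcohol mice, Hnrnpk, a poly-C binding hnRNP, had 1 array far from the others: replicate 3 stood at 8.51 on the log2 scale, the nearest of the other 7 at 8.95 and the highest at 9.27. The gap was 0.577 of the whole range, past the 95% critical value of Dixon's test for 8 samples. Of 39 groups of alcohol arrays looked at in this way 1 was marked, and chance marks about 1 in 20. The difference of Hnrnpk between alcohol and control SN, 0.23, was not called with this array in the fit.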

How the results depend on the processing

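In SN against TH of control mice the count of 26 members called ran from 25 to 28 under the other normalizations, filters, probe rules and variance models, was 25 without the replicate block, and ran from 23 to 27 without 1 mouse. The member median of −0.11 was −0.15 on quantile-normalized signals and −0.17 after normexp background correction (neqc), moves of more than 1 SD between mice but less than their whole range, for which the cause was not tested, and −0.12 to −0.10 without 1 mouse. The rise of Scaf11 was not called with neqc, among probes detected on every array, with an intensity trend, without the block or without any of 8 mice. Srsf3 fell with the mean of its probes (−0.09, adjusted p = 0.0112) and without control 8 (−0.08, adjusted p = 0.0192). None of the 23 named members changed sign over 391 values.

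In alcohol mice the count of 28 was 27 without the block and with neqc, and 26 to 29 without 1 mouse. For alcohol against control, 0 members were called in SN, in TH and for the gap under every alternative run, with the replicate block too, where the medians were −0.00727 in SN and −0.0158 in TH. Without 1 array the median ran from −0.0138 to 0.00553 in SN and from −0.0229 to −0.00979 in TH. Of the named members 5 of 17 in SN and 8 of 22 in TH changed sign at least once. Replicate numbers of alcohol and control mice belong to different animals. Probes near background have compressed differences, and 8 alcohol mice limit what could be called.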
